A study of Sus scrofa with 16 samples.

Results

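The 8 troponin genes of the pig were examined in chromatin accessibility data from 6 newborn tissues and from liver at later ages. The genes were TNNT1, TNNT2, TNNT3, TNNI1, TNNI2, TNNI3, TNNC1 and TNNC2, and they are 8 of 19560 protein-coding genes on chromosomes 1 to 18, X and Y of the RefSeq annotation of Sscrofa11.1. They were taken by name, with no threshold on a measured value. All peaks of 8 lists that overlapped a promoter (2.2 kb upstream to 500 bp downstream of a transcription start site, TSS) or the gene body with 5 kb on either side, called the window here, were collected.

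Accessibility was assayed by ATAC-seq, in which a transposase places sequencing adaptors in open DNA, on nuclei from frozen tissue of female crossbred domestic pigs, which the methods describe as Berkshire and Tibetan hybrids. The 16 libraries form 8 groups of 2 replicates. These are heart, skeletal muscle (longissimus dorsi), kidney, liver, lung and spleen of newborns, labelled with the birth day (day 0), and liver of suckling (day 28) and adult (day 180) animals. No group was treated or carried an engineered allele. Per the methods of the study, the newborn tissues came from the same animals, and whole tissue was used, so each group mixes cell types. The deposited data hold 1 merged peak list per group, from 57126 peaks in muscle to 141689 in suckling liver, and heart had 72920. Each peak carries the −log10 p of both replicates and an irreproducible discovery rate (IDR), which is low when both replicates rank the peak high and alike. Since −log10 p grows with depth, each value was turned into a percentile within its own list, where 100 is the strongest peak. The lists differ in length, so percentiles of different lists are set side by side with no order. Whether a merged list holds a peak has no value per replicate, no test was made, and differences are described beside the same share over all coding genes or all regions.

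Troponin is the calcium switch of striated muscle. Troponin C binds calcium, troponin I holds back the interaction of actin and myosin, and troponin T ties the complex to tropomyosin on the thin filament. Cardiac muscle uses TNNT2, TNNI3 and TNNC1, slow skeletal fibres use TNNT1, TNNI1 and TNNC1, and fast skeletal fibres use TNNT3, TNNI2 and TNNC2. TNNI1 is also known as the troponin I of the fetal heart, which TNNI3 replaces around birth. In mammals the troponin I and T genes lie in neighbouring pairs, while both troponin C genes stand alone.

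The pairs were found in the pig annotation as well. On chromosome 6, TNNI3 (59366828 to 59377490, minus strand) and TNNT1 (59351445 to 59365584, minus strand) were separated by 1243 bp, and their windows shared 8757 bp. On chromosome 10, TNNT2 (23749528 to 23759696, minus strand) and TNNI1 (23788279 to 23800554, minus strand) lay 28.6 kb apart with LAD1 between them. On chromosome 2, TNNI2 (1251566 to 1253883, plus strand) and TNNT3 (1297826 to 1316865, plus strand) lay 43.9 kb apart, with LSP1 and the gene model LOC110259216 between them. Each pair was on 1 strand. TNNC1 lay on chromosome 13 (34591571 to 34594320, minus strand), with the divergent TSS of NISCH 1468 bp away, and TNNC2 on chromosome 17 (48025621 to 48026762, minus strand).

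The annotation of the starts limits what a promoter means for some members. TNNT2 and TNNC2 have 1 mRNA model each with 0 bp of 5′ untranslated sequence, and TNNC2 is marked as partial. The true starts of both may thus lie upstream of those used. TNNI3 has 5 TSSs, of which the most distal, from 59377481 to 59377490, come from predicted models, while the curated start is at 59370416. TNNT1 has 11 TSSs and TNNT3 has 15, which fell into clusters when TSSs up to 500 bp apart were joined. The 8 genes together had 12 such start clusters.

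The sequences below are those on which the comparisons between heart and muscle turn. They are read from Sscrofa11.1, 5′ to 3′ along the strand of the gene, and are 200 bp each. Capitals mark matches on either strand. The letters CAGCTG are the form of the E-box known from the myogenic factors MyoD and myogenin. GATA factors are known to bind GATAA, and TEAD factors bind the MCAT element, CATTCC. Also marked are the TATA box (TATAAA), the letters known as the CACCC box, and the consensus of the myocyte enhancer factors, MEF2.

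The 200 bp upstream of the only TSS of TNNC1, chr13:34594321-34594520, minus strand, lie under a peak of the heart list and under a wider one of the kidney list, and a suckling liver peak reaches into them.
TNNC1 upstream: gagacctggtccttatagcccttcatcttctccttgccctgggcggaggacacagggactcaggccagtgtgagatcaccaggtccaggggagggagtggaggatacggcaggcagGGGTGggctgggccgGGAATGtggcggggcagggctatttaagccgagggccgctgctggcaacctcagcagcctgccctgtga
The 200 bp around the heart summit in the first intron of TNNC1, chr13:34593313-34593512, minus strand, belong to a region called in heart and muscle and in no other newborn list.
TNNC1 intron: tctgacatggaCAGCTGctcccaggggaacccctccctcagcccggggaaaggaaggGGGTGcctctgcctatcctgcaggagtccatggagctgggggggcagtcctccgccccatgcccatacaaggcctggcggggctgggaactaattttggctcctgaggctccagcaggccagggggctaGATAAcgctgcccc
The 200 bp upstream of the first start cluster of TNNT1, chr6:59365585-59365784, minus strand, were under peaks in heart and partly in muscle, and under none in the other lists.
TNNT1 upstream: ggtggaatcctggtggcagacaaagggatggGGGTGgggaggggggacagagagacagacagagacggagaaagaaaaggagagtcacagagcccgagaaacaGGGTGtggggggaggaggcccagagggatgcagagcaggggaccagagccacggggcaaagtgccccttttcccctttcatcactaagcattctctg
The 200 bp upstream of the distal start cluster of TNNI3, chr6:59377491-59377690, minus strand, are shown for contrast, as this start lay under a peak in all 8 lists.
TNNI3 distal upstream: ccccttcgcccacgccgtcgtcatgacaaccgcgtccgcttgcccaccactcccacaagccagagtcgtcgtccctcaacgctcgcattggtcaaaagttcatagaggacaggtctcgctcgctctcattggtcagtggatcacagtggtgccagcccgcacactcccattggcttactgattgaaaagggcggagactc
The 200 bp around the strongest heart-only summit of TNNT2, chr10:23763527-23763726, minus strand, lie upstream of the gene.
TNNT2 upstream summit: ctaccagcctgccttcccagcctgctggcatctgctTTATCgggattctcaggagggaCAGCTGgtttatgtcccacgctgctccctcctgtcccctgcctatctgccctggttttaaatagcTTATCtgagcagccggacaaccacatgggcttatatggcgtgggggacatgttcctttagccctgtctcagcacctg
The 200 bp upstream of the TSS of TNNI2, chr2:1251366-1251565, plus strand, hold the summit of a muscle peak.
TNNI2 upstream: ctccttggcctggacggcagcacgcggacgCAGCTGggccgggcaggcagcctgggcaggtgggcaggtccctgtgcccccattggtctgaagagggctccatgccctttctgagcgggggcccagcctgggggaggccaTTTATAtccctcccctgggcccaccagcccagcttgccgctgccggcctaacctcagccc
The 200 bp upstream of the first start cluster of TNNT3, chr2:1298979-1299178, plus strand, adjoin the strongest muscle-only summit of the family.
TNNT3 upstream: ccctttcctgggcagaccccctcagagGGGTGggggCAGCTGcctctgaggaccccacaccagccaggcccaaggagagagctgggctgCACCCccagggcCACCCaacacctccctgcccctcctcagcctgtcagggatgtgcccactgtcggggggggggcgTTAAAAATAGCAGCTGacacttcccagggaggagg

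Around the troponin genes, 7 of 9 regions found in heart alone lay at the cardiac genes, 6 at TNNT2 and 1 at TNNI3. Of 11 regions found in muscle alone, 10 lay at the fast genes, 8 at TNNT3 and 1 each at TNNI2 and TNNC2. Regions of 1 gene are not independent of each other, so this division by class rests largely on TNNT2 and TNNT3. The peaks of the 6 newborn lists were merged into regions wherever they overlapped by 1 bp, and 53 regions fell in the 8 windows when shared ones were counted once. Of these, 9 were called in heart only, against 4.91% of the 163906 regions in windows of all coding genes. Another 11 were called in muscle only, against 5.02%, and 3 in heart and muscle only, against 1.37%, which makes 23 in heart, muscle or both only, against 11.3%. By contrast 5 were called in all 6 lists, against 10.1%. In whole tissue, fewer cells with an open site and a less open site per cell cannot be told apart.

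Each region was then given to the member with the nearest TSS. The cardiac genes TNNT2 and TNNI3 had 15 regions, of which 7 were heart only and 0 muscle only. The fast genes TNNT3, TNNI2 and TNNC2 had 19 regions, of which 10 were muscle only and 0 heart only. The slow genes TNNI1 and TNNT1 had 15 regions, with 2 in heart only, both at TNNI1, and 2 in heart and muscle only, both at TNNT1. TNNC1, which serves cardiac and slow muscle, had 4 regions, of which 1 was muscle only and 1 in both only. No member had both heart-only and muscle-only regions. The share of all coding genes with both kinds was not computed, so this absence has no background beside it. Over all fast-gene regions, 1 contained a heart peak and 14 a muscle peak, whereas 11 cardiac-gene regions contained a heart peak and 3 a muscle peak.

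**Figure D1:**
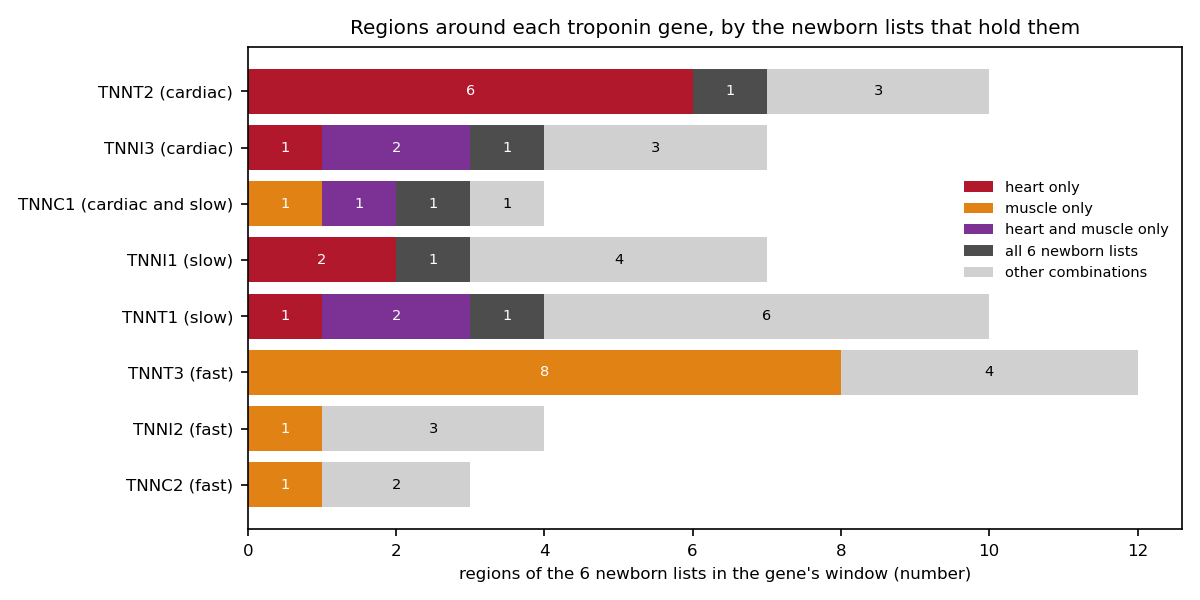
Number of regions of the 6 newborn lists in the window of each gene (x axis), coloured by the lists that hold them, with the isoform class in parentheses. TNNT2 had 6 heart-only regions and TNNT3 had 8 muscle-only regions, and regions in the overlap of the TNNI3 and TNNT1 windows appear in both bars.

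These 23 regions were of mixed strength. The mean percentile of the replicates ranged from 9.65 to 82.8 with a median of 53.9. An IDR of 0.05 or lower was reached by 7 of the 23, namely 1 heart-only region, 5 muscle-only regions and 1 in both. In the later liver lists 21 of the 23 were also without a peak, and the other 2 lay upstream of TNNT3. When all lists were first restricted to an IDR of 0.05 or lower, 7 of 19 regions were in heart, muscle or both only, against 11.2% over all coding genes. At an IDR of 0.01 or lower, 0 of 8 were, against 8.65%.

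TNNT2, the cardiac troponin T, had the most heart-only regions. Of the 10 regions in its window 6 were heart only, and muscle had 1 peak there, in an intronic region 3436 bp downstream of the start that all 6 newborn lists shared. The strongest heart-only region (chr10:23763504-23764022) had its summit 3931 bp upstream of the annotated start, a −log10 p of 19.8 in replicate 1 and 21.5 in replicate 2, percentiles of 77.1 and 77.7, and an IDR of 0.0263. Both replicates ranked it nearly alike. The second strongest lay downstream of the gene, 13196 bp from the start (chr10:23746269-23746846), with percentiles of 69.0 and 58.6 and an IDR of 0.0963. Of the rest, 1 lay 3622 bp upstream (mean percentile 45.3) and 3 lay downstream at mean percentiles from 11.2 to 25.7. The promoter as defined held a peak in heart, 1899 bp upstream, at percentiles of 69.1 and 35.5 and an IDR of 0.383, and in kidney, 1972 bp upstream, at percentiles of 48.8 and 5.33. The heart replicates differed widely there, and no list had a summit within 250 bp of the annotated start. Since the true start may lie upstream of the annotated one, a heart peak at the true start is not excluded.

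TNNI3, the cardiac troponin I, had different patterns at its starts. The distal start cluster, known only from predicted models, lay under a peak in all 8 lists. The score was at its cap in each, which stands for an IDR of 0.00391 or lower. Percentiles there ran from 87.1 in replicate 1 of muscle to 98.4 in replicate 1 of suckling liver. The curated start, by contrast, lay under a peak in heart only (chr6:59370305-59370736). Its summit was 97 bp upstream of that start, in an exon of the longer models, with −log10 p of 12.2 and 23.8, percentiles of 61.3 and 80.2, and an IDR of 0.101. No other list had a peak overlapping this region, so TNNI3 was open in all 8 lists by its whole promoter set and in heart only at its curated start. The start between them had no summit within 250 bp in any list. A region past the curated start (chr6:59368943-59369873) was called in heart, kidney, liver, lung and spleen. Its spleen summit lay 853 bp downstream of that start, at percentiles of 83.3 and 79.4 and an IDR of 0.01.

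TNNC1, the troponin C of cardiac and slow muscle, had a peak overlapping its promoter in all 8 lists. In every list but heart the strongest of these had its summit within 56 bp of a TSS of NISCH and more than a kilobase from that of TNNC1. In muscle this peak had percentiles of 66.5 and 50.2 and an IDR of 0.102. Heart was the only list with a summit within 250 bp of the TSS of TNNC1. That peak (chr13:34593981-34594639) had its summit 2 bp downstream of the TSS, with percentiles of 55.9 and 71.4 and an IDR of 0.122. The TSS was also covered by the kidney peak at NISCH, which was 2716 bp wide, and suckling liver had a summit 430 bp upstream, at percentiles of 42.5 and 12.9 and an IDR of 0.631. A stronger heart peak lay in the first intron, 907 bp downstream of the TSS, with −log10 p of 21.3 and 32.6, percentiles of 78.9 and 86.7 and an IDR of 0.0186. Its region (chr13:34593005-34593853) was also called in muscle and in no other newborn list. A muscle-only region lay downstream of the gene (chr13:34590224-34590929), with percentiles of 83.9 and 71.2 and an IDR of 0.019.

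**Figure D2:**
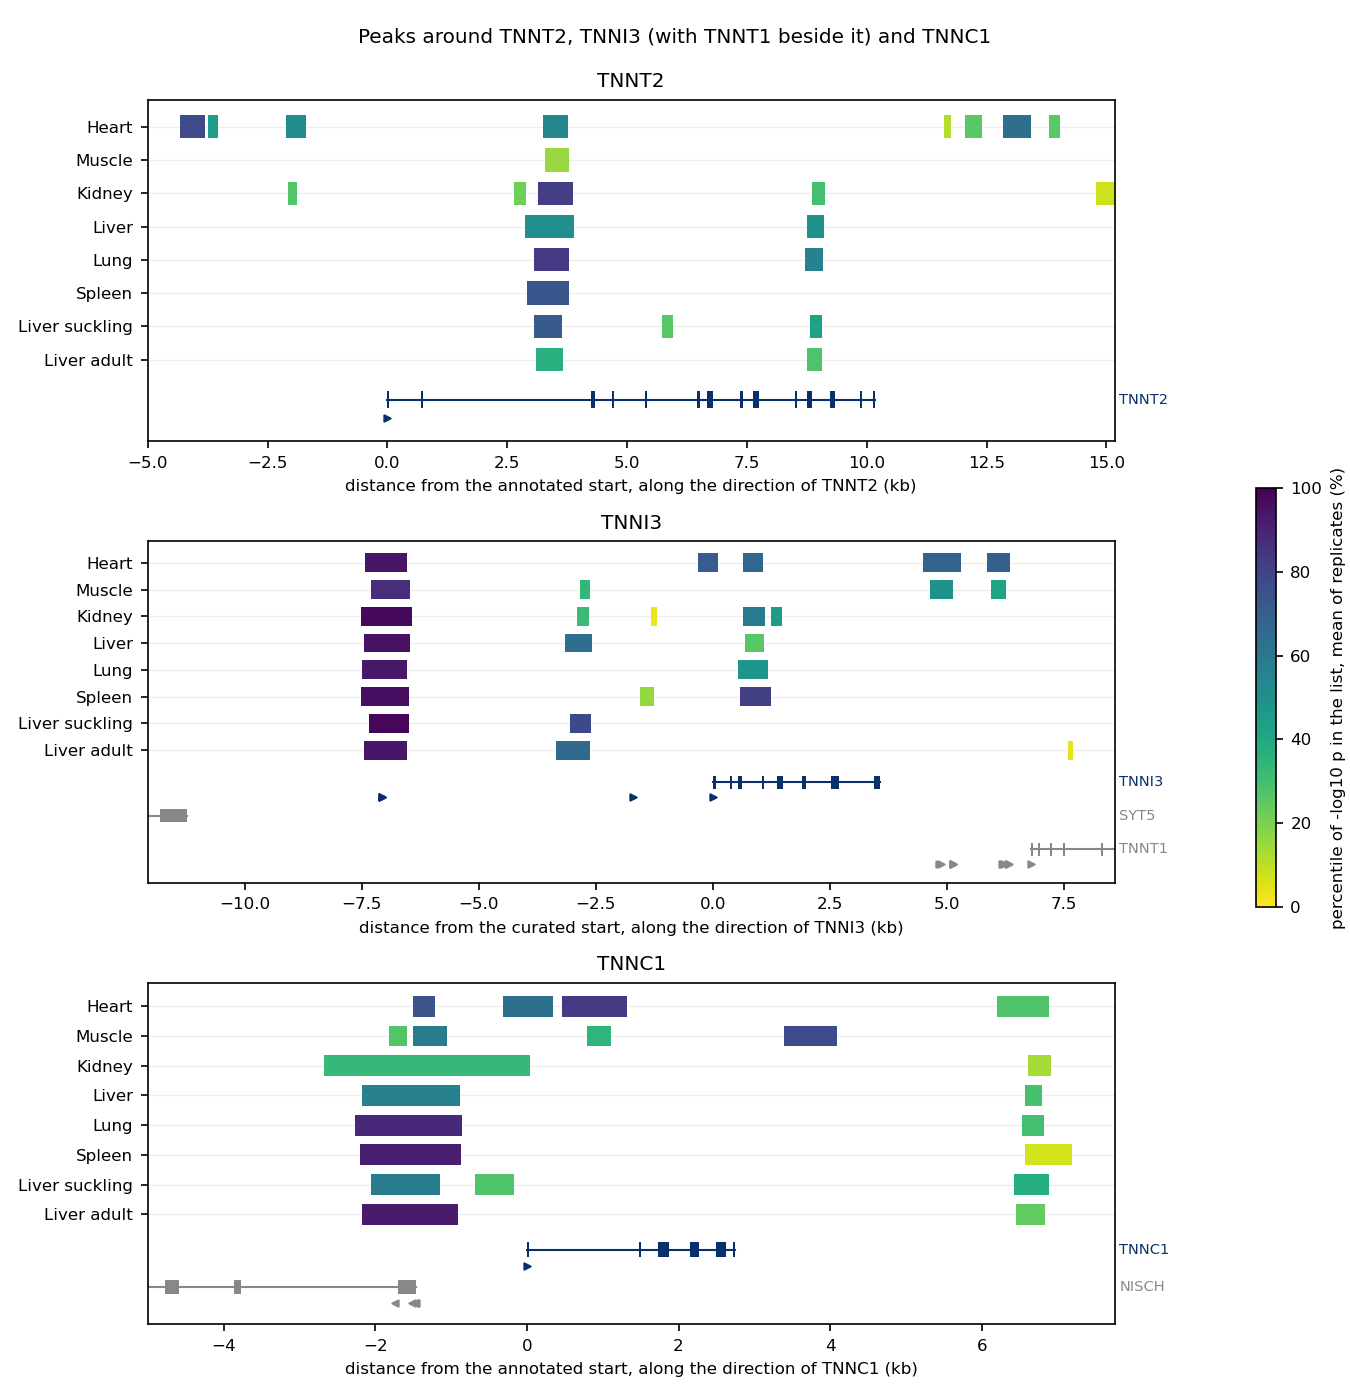
Peaks of the 8 lists (rows) across the windows of TNNT2, TNNI3 and TNNC1 by distance from a start in kb (x axis), with the mean percentile of both replicates as colour, exons as boxes and TSSs as arrowheads. Heart alone had peaks 3931 bp upstream of TNNT2 and at the curated start of TNNI3, while the distal TNNI3 start had a peak in all 8 lists.

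TNNT1, the slow skeletal troponin T, was the member whose promoter was open in heart and muscle and in no other list. Heart had a peak at each of its start clusters. The one at the first cluster (chr6:59365099-59365917) had −log10 p of 17.1 and 13.8 and percentiles of 72.8 and 64.1, with an IDR of 0.0672. The one at the second cluster (chr6:59364064-59364551) had −log10 p of 14.1 and 18.4 and percentiles of 66.4 and 73.5, with an IDR of 0.0572. Muscle had peaks at the same places, with percentiles of 57.3 and 41.7 at the first and 52.8 and 30.2 at the second. All 4 summits lay between 27 and 53 bp from a TSS. The curated start, 59363610, belongs to the second cluster and lay under none of the 4 peaks. None of the 4 peaks reached an IDR of 0.05.

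TNNI1, the slow skeletal troponin I, had weak promoter peaks in heart, muscle, kidney and liver and none in the other lists. Percentiles were 1.39 and 32.2 in heart, 67.3 and 13.7 in muscle, 26.9 and 5.85 in kidney, and 32.5 and 6.01 in liver, so the replicates of each list lay far apart. The lowest IDR among them was 0.43, in muscle. Its heart-only regions (chr10:23786705-23786951 and chr10:23788111-23788414) lay at or past its 3′ end, nearer to the TSS of LAD1, at mean percentiles of 15.3 and 45.8. The strongest region in the window was called in all 6 lists, 5052 bp upstream of the start.

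TNNT3, the fast skeletal troponin T, had the most muscle-only regions, 8 of 12, and neither heart nor spleen had any peak in its window. The strongest (chr2:1299029-1299452) lay over the first start cluster, with its summit 11 bp from a TSS. Its −log10 p was 40.2 in replicate 1 and 27.4 in replicate 2, with percentiles of 85.3 and 72.4 and an IDR of 0.0175, the highest mean percentile among the 11 muscle-only regions. The second (chr2:1297391-1297765) had percentiles of 64.4 and 65.1 and an IDR of 0.0288, and its summit was 99 bp from the TSS of LOC110259216. Across the other 6, mean percentiles ran from 9.65 to 64.2, and 1 of these, in an intron 1421 bp downstream of the nearest TSS, had an IDR of 0.0336. The adult liver list had a peak over the stretch near LOC110259216, at percentiles of 80.7 and 86.8 and an IDR of 0.00391 or lower. Suckling liver had a weak one at 9.98 and 26.6. Neither reached the first TNNT3 start cluster, which holds no curated start. The curated start, 1302308, had no summit within 250 bp in any list.

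TNNI2, the fast skeletal troponin I, had a muscle peak across its start (chr2:1250530-1252228) with the summit 168 bp upstream. Its −log10 p was 11.9 and 40.7, its percentiles 56.4 and 82.4, and its IDR 0.148, so the replicates differed. Kidney, lung and suckling liver had peaks in the promoter too, but their summits lay from 968 to 1016 bp upstream. Their percentiles were 67.7 and 52.2 in kidney, with an IDR of 0.0742, and 23.5 and 8.62 in lung. An intronic region (chr2:1252412-1252844) was called in liver and spleen and in both later liver lists. Its spleen summit lay 1016 bp downstream of the start, at percentiles of 79.3 and 77.7 and an IDR of 0.0122. No other peak in the window reached an IDR of 0.05. Heart had 0 peaks in the window. A muscle-only region lay downstream of the gene (chr2:1255887-1256145), at percentiles of 33.8 and 10.4.

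TNNC2, the fast skeletal troponin C, had no summit within 250 bp of its annotated start in any list. Its window held 3 regions, of which 1 was muscle only. Kidney had a summit 847 bp upstream of the start, at percentiles of 76.9 and 73.7 and an IDR of 0.00658. An overlapping muscle peak had its summit 908 bp upstream, at percentiles of 42.9 and 49.6 and an IDR of 0.126, and newborn and adult liver had peaks there as well. An intronic region 989 bp downstream was called in 5 newborn lists and not in muscle. Its replicates were far apart in heart, at percentiles of 25.6 and 66.8 with an IDR of 0.435, and in spleen, at 10.6 and 91.1. They were closer in kidney, at 63 and 73.7 with an IDR of 0.0204. Liver had percentiles of 67.1 and 56.9 with an IDR of 0.0958, and lung 41.9 and 61.9 with an IDR of 0.381.

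**Figure D3:**
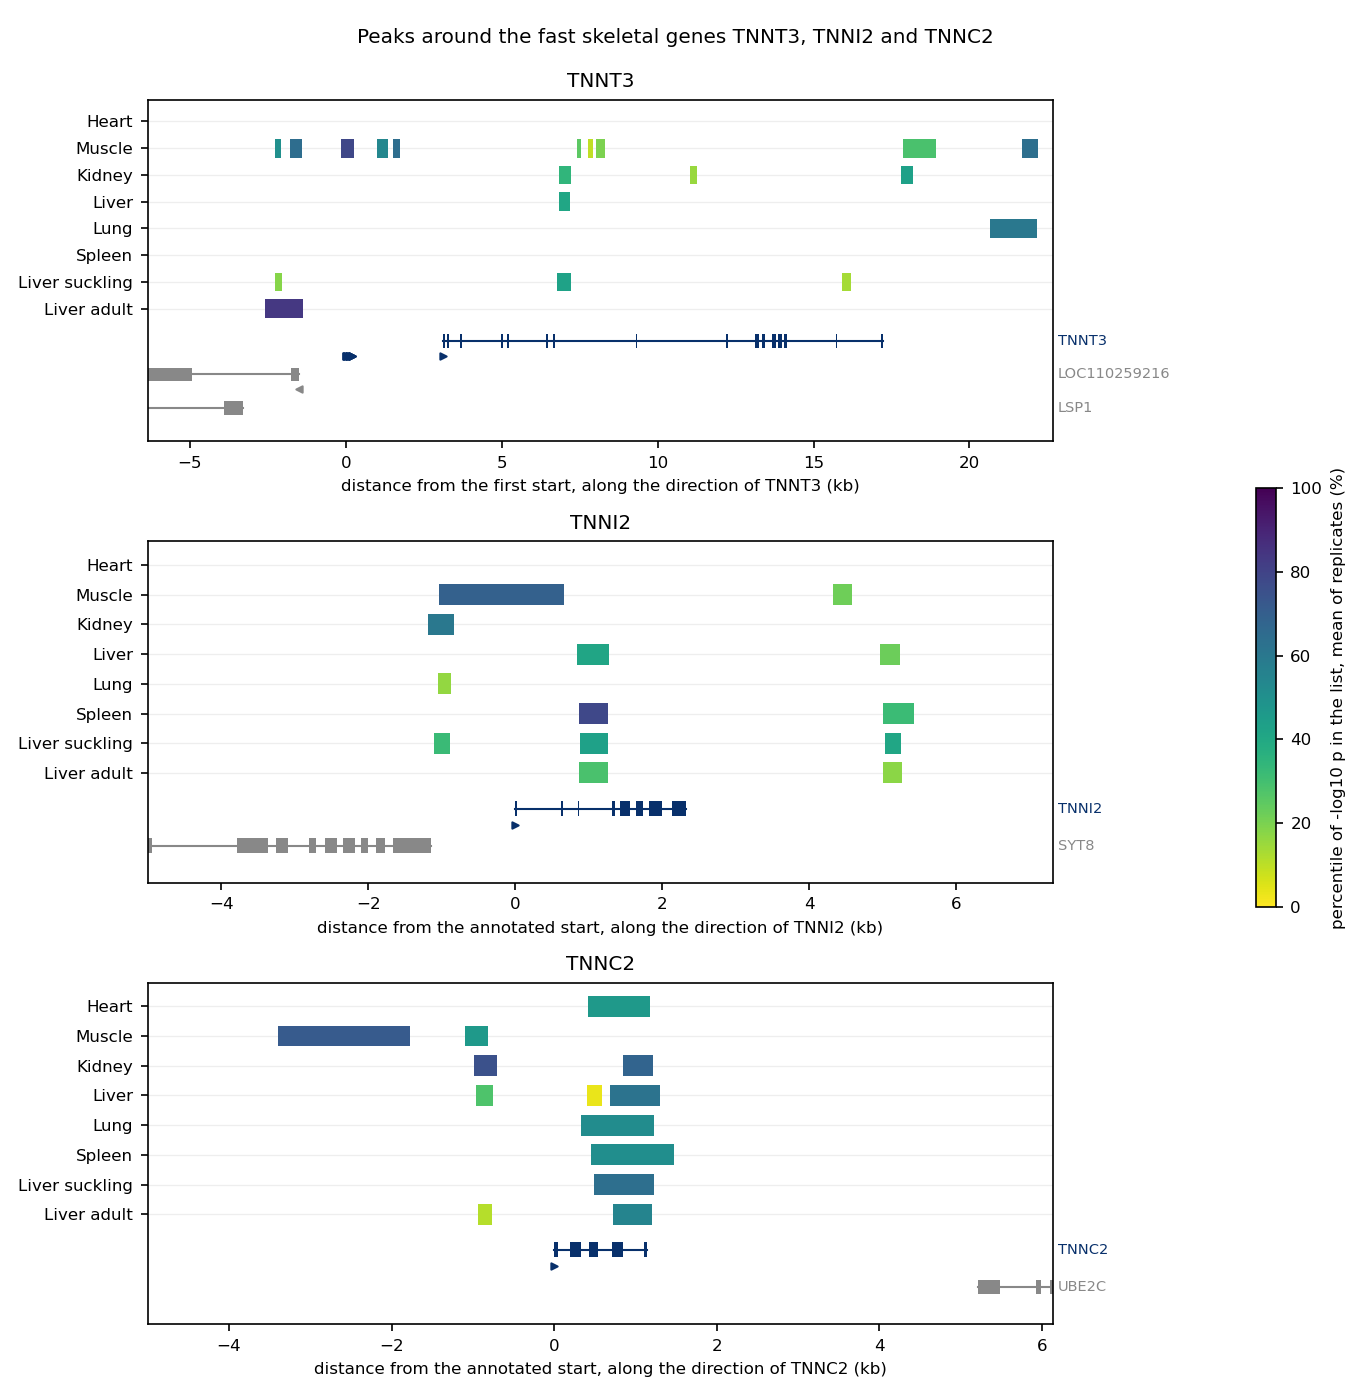
Peaks of the 8 lists (rows) across the windows of TNNT3, TNNI2 and TNNC2 by distance from a start in kb (x axis), drawn as for the cardiac genes. The heart row is empty at TNNT3 and TNNI2, while muscle has peaks in all 3 windows.

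Counted over whole promoters, the family looked less divided than by regions or by start. A promoter peak was present for 6 of 8 members in heart, where 67.9% of all coding genes had one, and for 7 in muscle (61.4%). The counts were 6 in kidney (75.1%), 4 in liver (73.5%), 4 in lung (70.4%) and 3 in spleen (68.8%), then 5 in suckling liver (74.8%) and 4 in adult liver (69.7%). Heart lacked the fast genes TNNI2 and TNNT3 but had a promoter peak at TNNC2, also fast. Muscle lacked the cardiac gene TNNT2 but had a promoter peak at TNNI3, also cardiac. These few absences are not read as a division by isoform. TNNC1, TNNC2 and TNNI3 had a promoter peak in all 6 newborn lists, a pattern of 57.6% of coding genes. A promoter peak in heart or muscle and in none of the other 4 newborn tissues was found for 2 members, TNNT1 and TNNT3, against 0.956% of coding genes. TNNT1 was 1 of 8 with the pattern of both only (0.266%), TNNT3 was 1 of 8 with muscle only (0.389%), and 0 of 8 were heart only (0.302%).

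A stricter count required a summit within 250 bp of a TSS. It was chosen after the promoter peaks had been seen. Heart then had 3 members, TNNC1, TNNI3 and TNNT1 (52.4% of coding genes), and muscle had 4, TNNI2, TNNI3, TNNT1 and TNNT3 (48.2%). Kidney and liver had 2 each, TNNI1 and TNNI3 (55.9% and 56.2%), and lung and spleen had only TNNI3 (55.9% and 54.6%). By this count 4 members, TNNC1, TNNI2, TNNT1 and TNNT3, were open in heart or muscle and in none of the other 4, against 2.05% of coding genes. The heart and muscle lists were the shortest of the newborn lists, and a longer list has more chances to end such a pattern. With the 57126 strongest peaks kept in every list, 4 members (TNNI1, TNNT1, TNNT2 and TNNT3) had a promoter peak in heart or muscle and in none of the other 4, against 1.93% of coding genes. At an IDR of 0.05 or lower TNNT3 was the only such member (1.5%), and at 0.01 or lower there were 0 (1.09%).

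**Figure D4:**
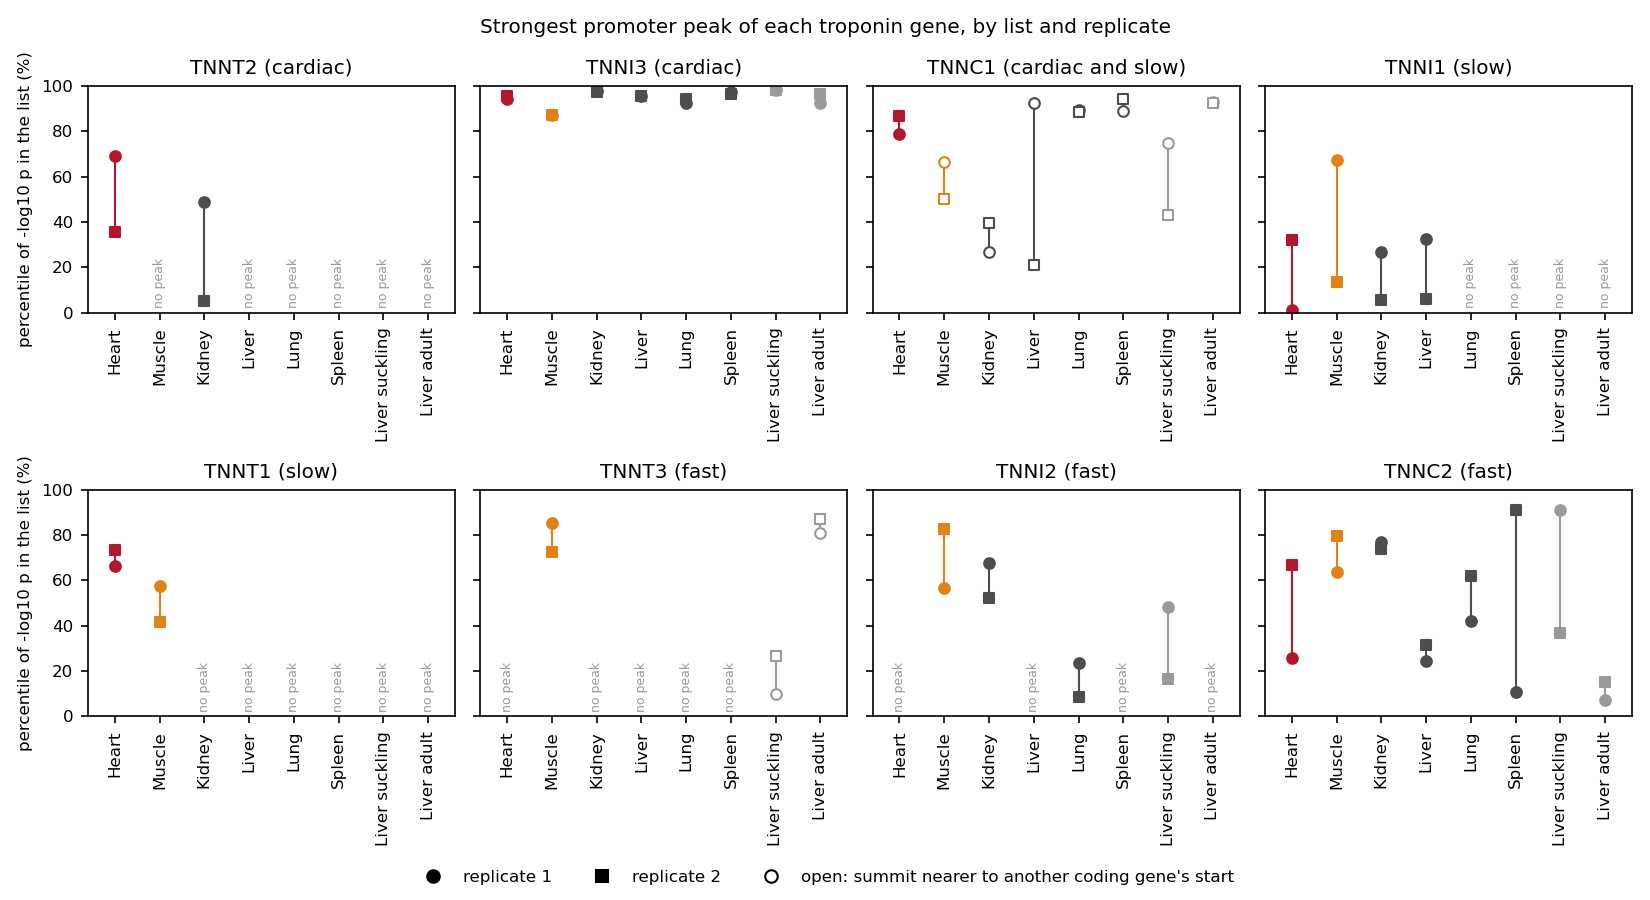
Percentile of the strongest promoter peak within its list (y axis, %) for each gene and list, with replicate 1 as a circle and replicate 2 as a square, joined by a line. TNNT1 has values in heart and muscle alone, TNNI3 lies at 87.1 or higher in every list, and the open symbols of TNNC1 show summits nearer to NISCH.

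Over the members with a promoter peak, the mean percentile of the strongest one was 60.5 ± 6.39 in heart and 65.1 ± 5.73 in muscle (SD of the replicate means, n = 2 each). These means are over 6 members in heart and 7 in muscle and are not compared. The share of each window that peaks covered was higher in heart than in muscle at the 5 cardiac and slow genes. At the 3 fast genes it was higher in muscle than in heart. It was 14.9% in heart and 2.51% in muscle at TNNT2, 14.8% and 8.9% at TNNI3, 19.5% and 13.4% at TNNC1, 18% and 13.3% at TNNI1, and 13.6% and 8.16% at TNNT1. At the fast genes it was 0% in heart and 12.9% in muscle at TNNT3, 0% and 15.9% at TNNI2, and 6.9% and 17.2% at TNNC2. The median over all coding genes was 3.45% in heart, 2.51% in muscle and 5.11% in kidney. Kidney peaks covered 23.7% at TNNC1, more than heart, and less than heart at the other cardiac and slow genes (12.5% at TNNT1). At TNNI1 the heart share includes a peak of 2415 bp at percentiles of 1.39 and 32.2. At TNNT1 the shares of heart and muscle include peaks near the TSS of PPP1R12C, in a region called in all 6 newborn lists. The shares were not scaled to the list medians, and the median of heart is higher than that of muscle. The windows of TNNI3 and TNNT1 overlap and are not separate cases.

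Motifs were searched in the 300 bp from 250 bp upstream to 50 bp downstream of each start cluster, on both strands, and set beside 28121 start clusters of all coding genes. CAGCTG was present at 4 of the 12 clusters of the family, against 17.7% of all. These were TNNI2, the curated start of TNNI3, the second cluster of TNNT1 and the first of TNNT3. The broader E-box CANNTG, which includes CAGCTG, was present at 8 (70.3%), CACCC at 10 (58.1%), AAGTG, the core known for NKX2 factors, at 4 (40.2%) and GATAA at 2 (22.1%), namely the curated TNNI3 start and the second TNNT1 cluster. CATTCC was present at 1, TNNC1 (12.0%), TATAAA at 1, TNNI2 (11.6%), the MEF2 consensus at 1, TNNT3 (3.25%), and the CArG box of serum response factor at 0 (1.59%). In TNNT3 the MEF2 match began 35 bp upstream of the first start and was followed directly by a CAGCTG that began 25 bp upstream, as the sequence above shows. In TNNI2 the TATAAA match began 60 bp upstream and CAGCTG 170 bp upstream. In TNNC1 the CATTCC match began 69 bp upstream. The distal TNNI3 start, accessible in every list, held none of the motifs searched but a CANNTG downstream of the start.

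The same letters were searched in 200 bp around the summits of the 23 regions in heart, muscle or both only. The 3 in heart and muscle only were put with the 9 in heart only, as their mean percentile was higher in heart. That split orders percentiles of different lists, which have no set order. Of these 12, strongest in heart, 6 held CAGCTG, against 19.1% of all heart peaks, and 4 held GATAA, against 22.4%. The 6 include regions at TNNC1 and TNNT1 that were also called in muscle. The strongest TNNT2 summit held CAGCTG once and GATAA at more than 1 place. Of the 11 that were strongest in muscle, 3 held CAGCTG, against 25.3% of all muscle peaks, 0 held GATAA (13.9%) and 11 held CACCC (44.7%). CACCC was also found in 8 of the 12 in heart (46.7%). The regions at TNNT3 and TNNT2 lie close together within each gene and are not independent of each other. A match describes letters and not the binding of a factor.

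**Figure D5:**
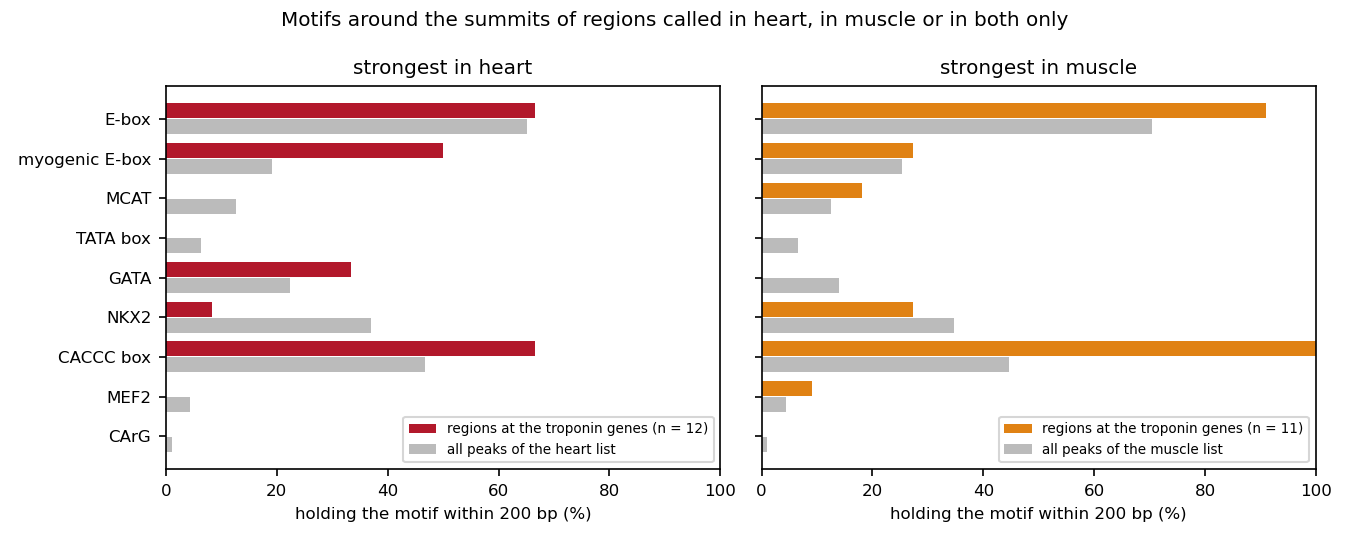
Share of regions holding each motif within 200 bp around the summit (x axis, %), for the 12 regions strongest in heart and the 11 strongest in muscle (coloured bars) and for all peaks of the same list (grey bars). Of the 12, 3 were also called in muscle. CAGCTG, named myogenic E-box, was in 6 of the 12 heart regions, and CACCC in 11 of the 11 muscle regions.

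Other genes of the sarcomere, from a list of 30 of which 27 were matched in the annotation, had promoter peaks for 15 in heart, where 67.9% of all coding genes had one, and 25 in muscle (61.4%). In heart or muscle and none of the other 4 newborn lists there were 11, against 0.956%. Among 9 heart genes these were MYL7, the atrial light chain, in heart only (mean percentile 76.5), MYL2 in muscle only (45.5) and MYL3 in both (87.2 in heart and 59.9 in muscle). Among 8 fast skeletal genes, 5 were muscle only, namely the myosin heavy chains MYH1 (73.2), MYH2 (69.2) and MYH4 (25.2) and the light chains MYLPF (69.9) and MYL1 (88.3), and none was heart only. Among 10 slow or shared genes, LMOD3 (88.2) and MYBPC1 (93.3) were muscle only, and TTN, the giant spring protein titin, was in both (91.4 in heart and 94.8 in muscle). The pattern of all 6 lists, as at TNNI3, TNNC1 and TNNC2, was found for 6 of the 27, against 57.6% of coding genes. As a check of the tissues, promoters of marker genes were open in their own tissue for 5 of 5 heart, 6 of 6 muscle, 4 of 5 kidney, 5 of 6 liver, 6 of 6 lung and 6 of 6 spleen markers, where 61.4% (muscle) to 75.1% (kidney) of all coding genes had a promoter peak. Markers with a promoter peak in their own tissue and in no other newborn list numbered 1 for heart, 1 for muscle, 3 for kidney, 2 for liver, 4 for lung and 3 for spleen. Of the muscle markers 5 of 6 also had a promoter peak in kidney, the longest of the newborn lists, and of the heart markers 3 of 5 did. Whether striated muscle cells contributed to the kidney peaks at TNNT2 and TNNI2 was not tested.

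The coding genes whose promoter percentiles over the 8 lists were most like those of each member were found by Euclidean distance in percentile points, with 0 where no peak was called. The distances were smallest for TNNI3, with WDHD1 and SOCS4, which had the same values, at 2.22 and RNMT at 2.28. For TNNT2 the nearest were C12H17orf50 (4.41), CHGA (4.59) and BIRC7 (9.29), and for TNNT1 they were ASB4 (6.72), LOC100736765 (8.54) and QRFP (8.85). TNNC1 was nearest to INO80D (23.5), TIGD5 and EEF1D (23.9 each), and TNNI1 to FAM180B (23.8), SPAG11 (25.4) and CSRP2 (25.9). TNNC2 was nearest to VASH1 (31.9), PDZRN3 (33.5) and ARHGAP6 (35.0), and TNNI2 to AGBL1, LOC110259813 (36.2 each) and CLIP4 (38.0). For TNNT3 the nearest was LOC110259216 (18.3), which shares its peaks, followed by LOC102162205 (26.6) and LOC106508044 (39.6).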

How the data were processed

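ATAC-seq was performed by the authors on 16 libraries in 8 groups of 2. Per the methods of the study and the labels, reads were aligned to Sscrofa11.1 with Bowtie2 and filtered with SAMtools (version 1.3.1 in the submitters' processing notes), peaks were called per replicate with MACS2, and replicates were merged with the IDR tool. For both replicates of a merged peak the authors deposited a −log10 p, and the column for the merged peak held the lower of them in 100% of peaks. The score deposited by the authors is the scaled IDR, where 540 stands for 0.05, 830 for 0.01 and 1000 is a cap. Lists were used unfiltered. They give no counts of reads and thus no depth at a peak, the read totals of the libraries were not used here, no limit of detection was computed, and a peak missing from a list was not called rather than absent. Columns for interval and summit were used as deposited.

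Genes, TSSs and sequences came from the RefSeq annotation and genome of Sscrofa11.1, and positions are counted from 1. Lists and promoters were joined on 1 bp of overlap, and percentiles were ranks within a list for each replicate, with Python 3.11.15, pandas 2.3.3, NumPy 2.4.6 and matplotlib 3.10.9. The counting was tested on simulated data with planted peaks. Samples were grouped by their labels. No test was made, since whether a merged list holds a peak has no value per replicate. All 8 members are named, with their strongest promoter peaks in heart and muscle, the regions called in heart, muscle or both only (in a window with more than 3, the 2 strongest and the range of the rest), the sarcomere genes with such a promoter pattern and the 3 genes of most like pattern, except that the sequence and account of 1 muscle-only region at TNNC2 are not reported here. Members, gene lists and motifs were chosen with earlier results of these data known. Alternatives were IDR thresholds, lists of equal length, merged peaks ranked and placed by 1 replicate, and summits in place of intervals. Others were narrower promoters, the first TSS alone and windows without flanks. Transcriptome data were not used here.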

Additional observations from a re-analysis of the deposited data

How the results depend on the processing

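No paired analysis was possible because the counts come from no test and whether a merged list holds a peak has no value per replicate. At an IDR of 0.05 or lower, promoter peaks were present for 2 members in heart (38.8% of coding genes) and 3 in muscle (37%). The other 4 newborn lists had 7 in sum (17 without the limit), and 1 member was open in heart or muscle only (1.5%). Regions then numbered 2 in heart only (3.07% over all coding windows), 5 in muscle only (6.96%) and 0 in both only (1.13%). These were 7 in all, out of 19 (11.2%). At an IDR of 0.01 or lower, promoter peaks were present for 1 member in heart (28.5%) and 1 in muscle (27.7%). The other 4 lists had 7 in sum, and 0 members were open in heart or muscle only (1.09%). The values for the regions were 0, 0 and 0, 0 in all (8.65%). With lists of equal length the sum over the other 4 lists was 9, and 4 members were open in heart or muscle only (1.93% of coding genes). Merged peaks were also ranked and placed by the values of 1 replicate, with lists of equal length. Only peaks matched between both replicates can enter these lists, and the muscle list keeps all of its 57126 peaks. Heart then had 4 to 6 members (62% to 63.7% of coding genes), muscle 7 (61.1% to 61.3%), and the other 4 lists 9 in sum. In heart or muscle only, 4 to 5 members were open (1.85% to 1.88% of coding genes). Regions were then 7 to 10 in heart only, 13 to 14 in muscle only and 3 to 4 in both only, 24 to 27 in all, where the share over all coding windows was 20.7% to 21.5% in place of 11.3%. In gene bodies with no flank there were 2, 6 and 3 such regions, 11 of 30, against 11.5% over all coding genes. With a summit within 250 bp of a TSS, an alternative added after seeing the data, heart had 3 members (52.4%) and muscle 4 (48.2%). The other 4 lists had 6 in sum, and 4 members were open in heart or muscle only (2.05%). Of 82 values under alternatives, 50 stayed within 1.5 times the reported count or within the replicate SD, and 32 did not. The fewer peaks that pass a limit account for lower counts by construction, and the cause of the other shifts was not tested. The 2 libraries per list, lists without read counts and bulk tissue limit all of these counts.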
